A study of Xenopus laevis with 15 samples.

Results

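Whole embryos of the frog Xenopus laevis were compared between 2 doses of NRX204647, a retinoic acid receptor agonist given only by a code name. The 10 libraries concerned, of 15 in the series, were 5 from embryos kept in 1 µM NRX204647 and 5 from embryos kept in 10 nM NRX204647. They were chosen by the dose in the labels. Per the labels, the higher dose activates the retinoic acid receptors alpha, beta and gamma, and the lower dose activates gamma specifically. The comparison therefore asks what the higher dose adds to the gamma-selective one. The other 5 libraries came from embryos in 0.1% ethanol, the solvent used as vehicle, and they did not enter the test. No genotype or strain is given in the labels, and all embryos came from eggs fertilised in vitro. Exposure began at stage 6 to 7, in cleavage, and ended at stage 18, in the neurula.

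Per the labels' protocols, embryos were exposed in dishes of 25 in 10 mL of medium, and a dish was harvested as 5 aliquots of 5 embryos, each a replicate. No further dishes per dose are described, so dose and dish cannot be told apart, and every p-value below measures the spread between aliquots only. Values are FPKM, reads per gene model scaled for length and library size. Of 45099 gene models, 13203 (29.3%) averaged 1 FPKM or more across both doses and were tested with limma on log2(FPKM + 1). Of those tested, 315 carry a symbol that is not a placeholder, so most of the response could be counted but not named. The named ones are confined to identifiers Xelaev18000032m.g to Xelaev18004739m.g, while tested identifiers reach the numbers 47800 to 47899. The named genes and gene lists below therefore draw on that stretch of identifiers only. Fold changes on this scale understate the change of genes with low values.

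Retinoic acid is made from vitamin A by a retinol dehydrogenase step followed by a retinal dehydrogenase step, and is cleared by Cyp26 enzymes. It binds nuclear receptors that sit on DNA and switch their target genes between repression and activation. In vertebrate embryos it sets positional identity along the hindbrain and trunk, and it acts in somites, neural crest and neurons. Genes of retinoid synthesis and breakdown are themselves among its known targets.

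The libraries separated by dose. The first principal component held 39% of the variance, with scores of 23.73 to 28.31 for the 1 µM libraries and -27.56 to -20.17 for the 10 nM libraries. The correlation between libraries had a median of 0.957 within 1 µM, 0.932 within 10 nM and 0.902 between the doses. The 1 µM libraries were sequenced more deeply. Their depth relative to the deepest library, read from the step sizes of the FPKM values, was 0.839 ± 0.189 at 1 µM against 0.455 ± 0.143 at 10 nM (SD, n = 5 each). The tested gene models held 4405799 to 8643718 recovered reads at 1 µM and 2100569 to 4853285 at 10 nM, and gene models with a mean of 1 to 2 FPKM rested on a median of 57 to 109 and of 26 to 62 reads per library. The most abundant gene model held 14.46 to 26.22% of all FPKM at 1 µM and 17.64 to 32.85% at 10 nM. Along the second component 10 nM replicates 2 and 3, the 2 shallowest libraries, lay farthest apart, at 33.56 and -24.08.

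At an adjusted p under 0.05 (limma, Benjamini-Hochberg), 3224 of the 13203 gene models differed between the doses, or 24.4%. Of these, 2243 (17%) were higher at 1 µM and 981 (7.43%) were lower. Most differences were small. The median size among calls was 0.56 on the log2 scale for the higher ones and 0.51 for the lower ones, and 52.7% and 62.6% of them were under 1.5-fold. A difference of 2-fold or more was called for 379 higher gene models (2.87%) and 100 lower ones (0.757%). At 4-fold or more there were 54 higher and 6 lower. The 5 libraries of the doses did not overlap for 1740 gene models higher at 1 µM (13.2%) and 746 lower (5.65%). For 6429 gene models (48.7%), the 95% interval of the difference lay within 0.5 of 0 on the log2 scale.

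The excess of higher over lower calls depended on how the libraries were scaled. Higher calls made up 69.6% of all calls on the deposited scale, where the median difference of all tested gene models was 0.09. With median-of-ratios scaling 1677 were higher and 1542 lower, and with quantile normalization, which moved the median down by 0.11, 1615 were higher and 1713 lower. A correction for gene length gave 1593 and 1498, a total made equal after leaving out the most abundant transcript gave 1838 and 1325, and limma's voom on the recovered reads gave 1681 and 1607. Of the calls, 1483 higher and 936 lower were made in the same direction under these 4 scalings of the FPKM, and none was called in opposite directions under any of them. The direction of the whole is therefore not stated here, and the values below are on the deposited scale, to be read against that median of 0.09. With the reads thinned to the depth of the shallowest library, 1765 gene models were higher and 747 lower, and without 10 nM replicates 2 and 3 there were 1788 and 760.

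**Figure D1:**
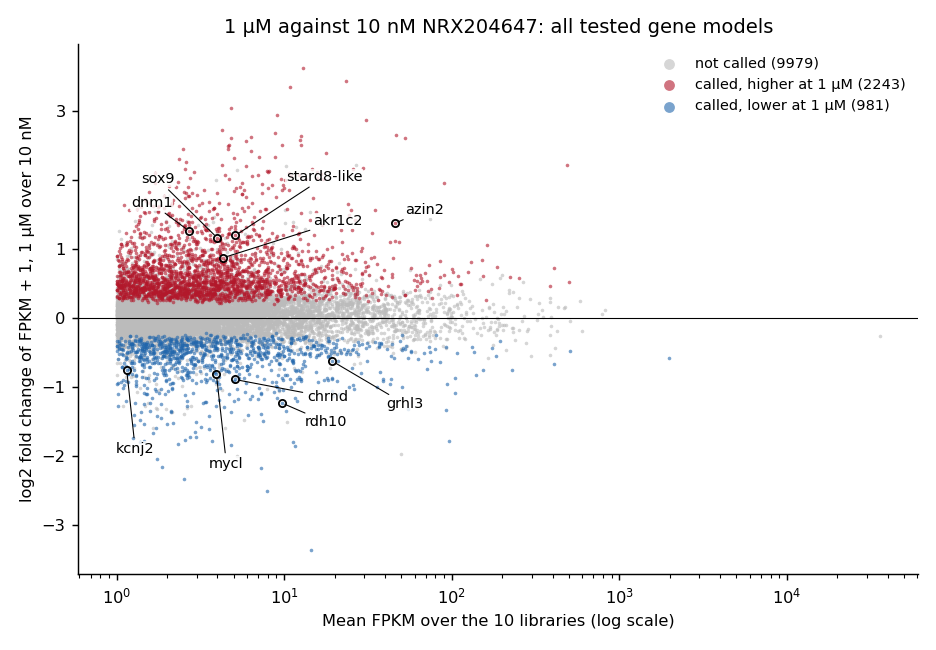
Each point is 1 of the 13203 tested gene models, by its mean FPKM over the 10 libraries (log axis) and its log2 fold change, 1 µM over 10 nM. Red marks the 2243 called higher at 1 µM, blue the 981 called lower and grey the rest, and circles mark 10 genes described in the text, which have moderate levels and do not hold the largest changes.

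**Figure D2:**
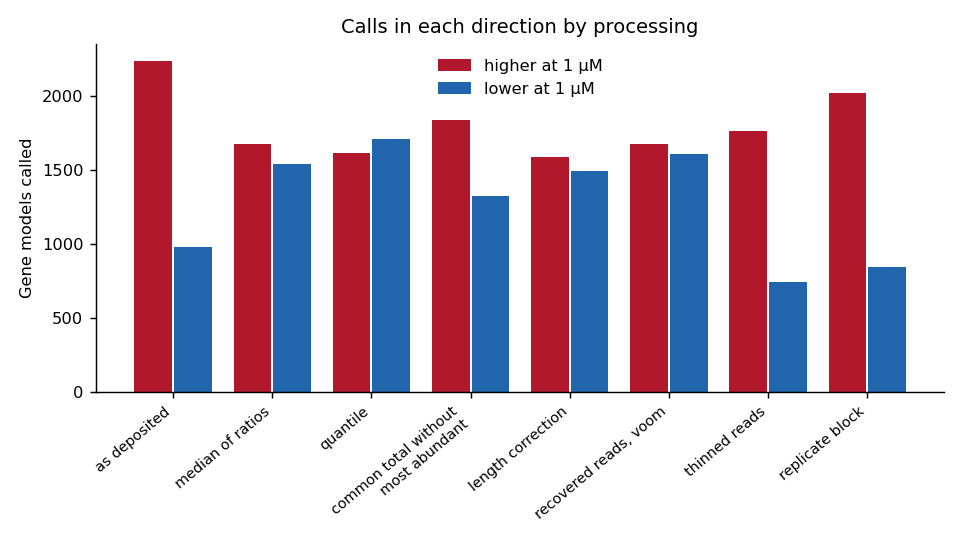
Bars give the number of gene models called higher (red) and lower (blue) at 1 µM against 10 nM under each processing. Higher calls outnumber lower ones by 2243 to 981 as deposited, and are outnumbered, 1615 to 1713, after quantile normalization.

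Among the 315 named genes, 61 (19.4%) were higher and 19 (6.0%) lower, shares close to those of all tested gene models, and 235 were not called. Under the 4 other scalings 34 to 48 were higher and 28 to 40 lower. Of the 61 and 19 calls on the deposited scale, 36 and 13 had no overlap between the libraries of the doses. Over all tested gene models this held for 1670 of 2243 higher calls and 703 of 981 lower ones. Of the 479 calls of 2-fold or more on the scale of FPKM + 1, only 8 had a name. They were azin2, dnm1, stard8-like, sox9, mycbp, sema3f-like.1 and fnbp1 among the increases and rdh10 among the decreases. By mean FPKM alone, further named calls differed by more than 2-fold. Examples were ak3, at 2.71 FPKM in 1 µM and 1.04 FPKM in 10 nM embryos, and kcnj2, at 0.596 and 1.70 FPKM.

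The gene lists below were written with earlier results of these data known. Their shares beside those of all tested gene models are therefore descriptions and not tests. Retinoid metabolism had 2 named members above the level filter, and they moved in opposite directions. The retinol dehydrogenase gene rdh10, which acts in the first step of retinoic acid synthesis, had 5.20, 5.22, 5.94, 5.08 and 5.34 FPKM at 1 µM, against 17.4, 14.6, 12.5, 12.1 and 13.3 FPKM at 10 nM. Every 1 µM library lay far below every 10 nM library, and the level at the higher dose was nearly constant. The difference on the log2 scale was -1.23 ± 0.10 (SE; limma, adjusted p = 7.08e-06), the largest named decrease. The aldo-keto reductase gene akr1c2, of an enzyme family that reduces steroids and other carbonyl compounds, had 5.63, 8.63, 6.15, 4.95 and 4.30 FPKM at 1 µM, against 2.37, 2.63, 2.68, 3.10 and 2.75 FPKM at 10 nM. The groups did not overlap although the 1 µM libraries varied, and the difference was 0.88 ± 0.14 (SE; limma, adjusted p = 0.000985).

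Of 3 nuclear receptor and cofactor genes, 1 was called, beside 24.4% of all tested gene models. The orphan receptor gene nr2f6, a relative of the COUP-TF genes, had 3.88, 4.10, 4.01, 4.66 and 4.07 FPKM at 1 µM, against 2.40, 3.20, 2.77, 2.34 and 1.98 FPKM at 10 nM. The groups did not overlap, and 1 µM was higher by 0.55 ± 0.10 on the log2 scale (SE; limma, adjusted p = 0.00178). The Mediator subunit gene med28 was not called, with a difference of 0.25 and a 95% interval from -0.20 to 0.71. The coactivator gene ncoa6, whose product binds nuclear receptors, was not called as deposited, at -0.23 (95% interval -0.45 to -0.01), but was called lower with median-of-ratios scaling, quantile normalization, the length correction and voom. No gene named for a retinoic acid receptor, a Cyp26 enzyme or a Hox protein was among the 315, so these are not described here.

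Among the largest named increases were azin2 and sox9, each the only called gene of 2 tested in its list. Of all tested gene models, 24.4% were called. The antizyme inhibitor gene azin2, whose product restrains the breakdown of ornithine decarboxylase, had 79.8, 62.5, 73.9, 52.0 and 61.5 FPKM at 1 µM, against 19.4, 24.5, 37.4, 22.8 and 21.9 FPKM at 10 nM. The lowest 1 µM library stood above the highest 10 nM library, and the difference, the largest among named genes that were called, was 1.37 ± 0.17 (SE; limma, adjusted p = 0.000169). The transcription factor gene sox9, which acts in neural crest and the otic placode, had 5.88, 6.46, 6.74, 5.13 and 5.09 FPKM at 1 µM, against 2.87, 2.02, 2.52, 1.25 and 1.78 FPKM at 10 nM. All 1 µM libraries were higher, and the difference was 1.17 ± 0.14 (SE; limma, adjusted p = 0.000136). The placode gene eya1, the other tested member of the crest and placode list, was not called, at -0.13, nor was mat1a, for a methionine adenosyltransferase, in the polyamine and amino acid list, at -0.01.

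Both tested genes of the axon guidance list were higher, beside 17% of all tested gene models. The gene sema3f-like.1, for a secreted semaphorin that repels growing axons, had 4.65, 3.75, 2.98, 2.55 and 3.68 FPKM at 1 µM, against 1.15, 1.10, 1.15, 1.29 and 0.837 FPKM at 10 nM. The groups were well apart, by 1.09 ± 0.12 (SE; limma, adjusted p = 7.81e-05). The gene robo3, for a receptor of the Slit receptor family that acts in commissural axons, averaged 7.70 ± 0.84 FPKM at 1 µM against 4.49 ± 0.86 FPKM at 10 nM (SD over 5 libraries, as for all means below), without overlap, a difference of 0.67 (limma, adjusted p = 0.00182). The neural progenitor genes sox2 and pou3f1 were not called. Their differences were 0.54, with a 95% interval from -0.09 to 1.18, and 0.37, with an interval from 0.07 to 0.67, and sox2 was listed at 0 in 1 of the 10 nM libraries.

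Of 5 muscle genes, 3 were lower at 1 µM and none higher, beside 7.43% lower and 17% higher of all tested gene models, with a list median of -0.54. Without 10 nM replicates 2 and 3 the count was 2 lower. The gene chrnd, for the delta subunit of the muscle acetylcholine receptor, had 3.42, 2.66, 3.81, 2.49 and 4.10 FPKM at 1 µM, against 7.51, 7.02, 6.40, 6.79 and 6.64 FPKM at 10 nM. The groups did not overlap, and the difference was -0.89 ± 0.11 (SE; limma, adjusted p = 0.000184). Its neighbour by identifier, chrng for the gamma subunit, averaged 5.63 ± 1.3 FPKM at 1 µM and 8.54 ± 1.3 FPKM at 10 nM, with overlap (-0.54; limma, adjusted p = 0.0225), and lost its call without 10 nM replicates 2 and 3 and without 1 µM replicate 5 alone. The gene ldb3-like.1, for a protein of the muscle Z-disc, had 1.46, 0.901, 0.984, 0.654 and 1.18 FPKM at 1 µM, against 2.06, 2.03, 2.08, 2.21 and 2.17 FPKM at 10 nM, a difference of -0.62 (limma, adjusted p = 0.00132). The smooth muscle and non-muscle genes pdlim1 and myl9 were not called, at 0.21 and 0.02. The muscle cadherin gene cdh15, which was placed in the adhesion list and not in this one, was not called either, at -0.14. In bulk RNA, fewer cells of a type and less RNA per cell cannot be told apart, here and in the other lists. Reads were taken without strand, so reads of overlapping and antisense genes cannot be told apart either, and near-identical gene copies of this species, whose genome was duplicated, may share reads.

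The inward rectifier potassium channel gene kcnj2, which sets the resting potential of muscle and other cells, had 0.540, 0.540, 0.583, 0.648 and 0.667 FPKM at 1 µM, against 1.23, 1.57, 2.14, 1.85 and 1.73 FPKM at 10 nM. The lowest 10 nM library was above every 1 µM library, a difference of -0.75 ± 0.10 (SE; limma, adjusted p = 0.000323). In a list of 12 membrane genes, mostly channels and carriers, 3 were higher and 4 lower, beside 17% and 7.43% of all tested gene models. With median-of-ratios scaling, quantile normalization, the length correction and voom 1 was higher and 5 lower, with a common total 1 and 4, and without 10 nM replicates 2 and 3 the counts were 1 and 2. The counts over all tested gene models under each were given with the scalings above. The fatty acid transport protein gene slc27a4 was among the higher ones, at 2.80 ± 0.38 FPKM in 1 µM embryos and 1.40 ± 0.30 FPKM in 10 nM embryos (limma, adjusted p = 0.00109). The other higher members, tmem132a and tspan14, are not channels or carriers, and the lower ones include chrnd and chrng of the muscle list. Outside the list, lrrc8a-like (0.36; limma, adjusted p = 0.0259) and mfsd7 (0.47; limma, adjusted p = 0.0154) were called higher, and nipal3 (0.20) was not called.

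**Figure D3:**
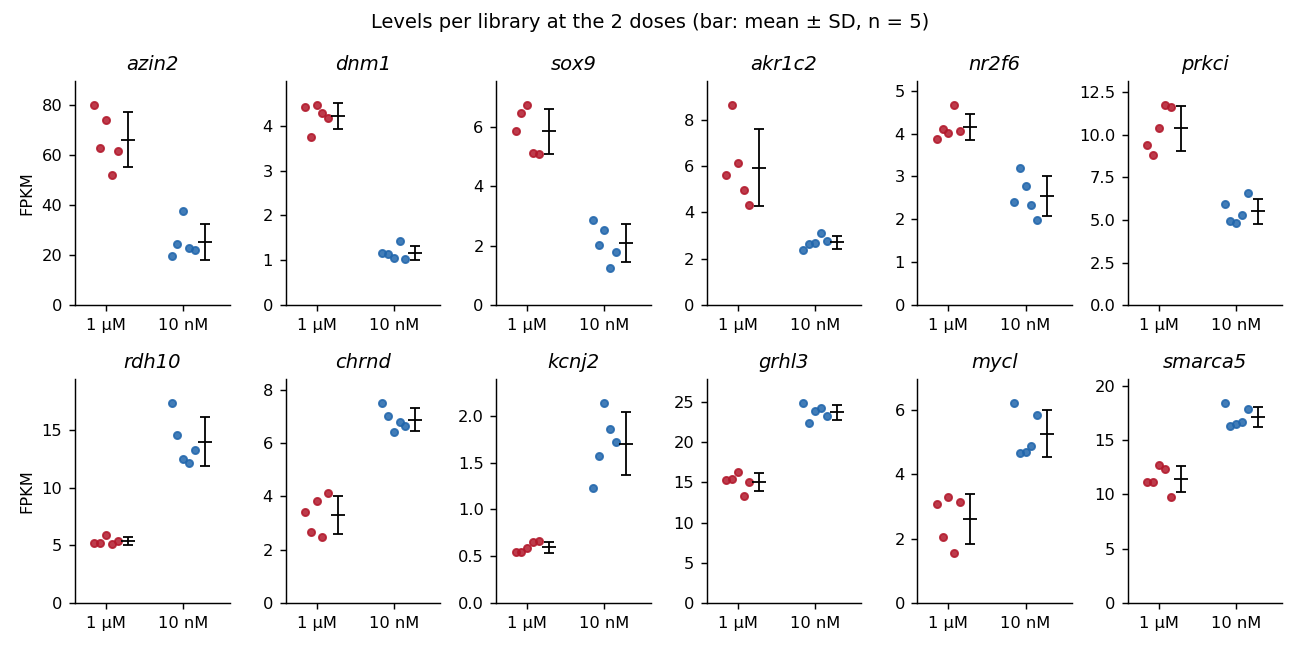
FPKM of 12 named genes in each library, 1 µM (red) left of 10 nM (blue), each panel on its own axis from 0, with the mean ± SD of the 5 libraries beside the points. The upper 6 genes, azin2 to prkci, are higher at 1 µM and the lower 6, rdh10 to smarca5, are lower, without overlap in any panel.

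The epidermal list had 1 higher and 1 lower gene among 4, beside 17% higher and 7.43% lower of all tested gene models. The gene grhl3, for a transcription factor of epidermal differentiation, had 15.3, 15.5, 16.3, 13.3 and 15.1 FPKM at 1 µM, against 24.9, 22.4, 23.9, 24.2 and 23.2 FPKM at 10 nM. The spread within each dose was small and the groups did not overlap (-0.62 ± 0.08, SE; limma, adjusted p = 0.00016). The member that was higher, atp6v1e1 for a subunit of the vacuolar proton pump, belongs to every cell. Its difference of 0.38 (limma, adjusted p = 0.0309) was lost with the 4 other scalings, with voom, without 10 nM replicates 2 and 3 together or either alone, without 10 nM replicate 4, and without any of 1 µM replicates 1, 3, 4 and 5. The ciliary transport genes ift52 and ift46-like were not called, at 0.15 and -0.02.

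Signalling lists were thinly named. The gene tll1-like.1, for a protease of the tolloid family that cleaves the BMP antagonist chordin, had 1.19, 0.924, 1.06, 1.01 and 0.900 FPKM at 1 µM, against 2.36, 1.83, 1.98, 1.84 and 2.15 FPKM at 10 nM. The groups did not overlap, and the difference was -0.59 ± 0.08 (SE; limma, adjusted p = 0.000394). The BMP antagonist gene nog was not called, at 0.63 with a 95% interval from 0.16 to 1.09 (limma, adjusted p = 0.0525), nor was the receptor gene bmpr1a, at 0.10. Of 4 Wnt genes 1 was called higher, beside 17% of all tested gene models. This was lrp6, for a Wnt co-receptor, at an adjusted p of 0.0498 (limma; 0.33). Its call was lost in 19 of 24 alternatives. Among them were the omission of any 1 µM library and of 10 nM replicate 2, 3 or 4. The insulin receptor gene insr differed by 0.29 (limma, adjusted p = 0.0262), a call lost in 9 of 24, among them the omission of 1 µM replicate 1, 3 or 4 or of 10 nM replicate 5.

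Of 3 genes in the list of other transcription factors, mycl was lower, mycbp was higher and znf605 was not called. Beside this, 7.43% of all tested gene models were lower and 17% higher. The gene mycl, for a MYC family factor, had 3.06, 2.04, 3.31, 1.56 and 3.13 FPKM at 1 µM, against 6.23, 4.67, 4.68, 4.89 and 5.86 FPKM at 10 nM. Every 1 µM library was below every 10 nM library (-0.81 ± 0.15, SE; limma, adjusted p = 0.00245). The gene mycbp, for a protein that binds MYC and is not itself a DNA-binding factor, had 3.87, 4.46, 4.66, 2.75 and 3.16 FPKM at 1 µM, against 0.769, 3.03, 0, 1.06 and 2.13 FPKM at 10 nM. Its groups overlapped, and its difference of 1.14 (limma, adjusted p = 0.022) was lost with thinned reads, with a pseudocount of 0.1 and without 1 µM replicate 2 or 3.

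Genes of the chromatin list were either not called or lower, with 3 of 11 lower and none higher, beside 7.43% and 17% of all tested gene models. The list median was 0.08 against 0.09 for all tested gene models. The list counts sirt5, for a mainly mitochondrial enzyme, which was not called. The gene smarca5, for the ISWI remodelling ATPase, had 11.1, 11.1, 12.7, 12.4 and 9.77 FPKM at 1 µM, against 18.4, 16.3, 16.5, 16.7 and 17.8 FPKM at 10 nM. The groups did not overlap (-0.55 ± 0.09, SE; limma, adjusted p = 0.000822). The histone-binding subunit gene rbbp4 (-0.48; limma, adjusted p = 0.00854) and the NuRD subunit gene mta1 (-0.39; limma, adjusted p = 0.0121) were also lower, mta1 without overlap. With median-of-ratios scaling, quantile normalization, the length correction or voom, 4 of 11 were lower. Over all tested gene models, 1542, 1713, 1498 and 1607 were lower under these, in that order, of 13203 in the first 2 and 12793 in the others. Outside the list, hells, for a remodelling helicase needed for DNA methylation, averaged 2.80 ± 0.45 FPKM at 1 µM and 4.29 ± 0.70 FPKM at 10 nM (limma, adjusted p = 0.00966). Its call was lost with thinned reads (limma, adjusted p = 0.0883). Also outside the list, the cofactor genes gse1-like (0.60; limma, adjusted p = 0.000603) and zfpm1-like (0.44; limma, adjusted p = 0.00891) were called higher without overlap. The genes gatad2a (-0.04), bcor (-0.15) and jmjd3 (0.12) were not called. These were picked after their values were seen.

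No gene of the list of DNA replication, repair and mitosis was called among 10, beside 17% higher and 7.43% lower of all tested gene models, with a list median of -0.12. The list also took in kif1c, cdk9 and tp53inp2-like, which are not mainly genes of these processes. The count of lower genes was 3 with median-of-ratios scaling, quantile normalization and the length correction, 1 with a common total and 4 with voom. Over all tested gene models, 1542, 1713, 1498, 1325 and 1607 were lower under these processings in that order. They were taken from 13203, or from 12793 with the length correction and voom. The mRNA decay gene zfp36l1, whose product binds AU-rich elements, had 3.76, 4.06, 3.83, 5.44 and 4.68 FPKM at 1 µM, against 9.37, 7.28, 7.52, 6.73 and 7.19 FPKM at 10 nM. These did not overlap (-0.69 ± 0.11, SE; limma, adjusted p = 0.000936). Splicing genes were mostly not called, with only ptbp3, for an RNA-binding splicing regulator, higher among 11 (0.35; limma, adjusted p = 0.00924), a call lost with quantile normalization. Beside this, 17% of all tested gene models were higher. The splicing list had 2 lower genes with median-of-ratios scaling and 1 each with quantile normalization, the common total, the length correction and voom. The counts of lower calls over all tested gene models are those just given. In the ribosome list wdr3, for a protein of small-subunit assembly, was lower (-0.40; limma, adjusted p = 0.0189). The higher member of that list, wdr24, is a regulator of amino acid signalling to mTORC1 and not a ribosome assembly factor (0.34; limma, adjusted p = 0.0325, lost in 12 of 24 alternatives). Among these were the omission of 1 µM replicate 1, 3 or 5 and of 10 nM replicate 2, 3, 4 or 5, and wdr3 lost its call without 10 nM replicates 2 and 3 together.

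Folding, glycosylation and secretory pathway genes were higher in 7 of 17 and lower in none, beside 17% higher and 7.43% lower of all tested gene models, with a list median of 0.30. Of the 7, the dynamin gene dnm1 encodes a protein that pinches off vesicles in endocytosis and does not belong to secretion. It had 4.42, 3.74, 4.46, 4.29 and 4.17 FPKM at 1 µM, against 1.16, 1.14, 1.06, 1.42 and 1.04 FPKM at 10 nM. The 1 µM mean was 3.62 times the 10 nM mean, and the difference of 1.27 ± 0.08 had the lowest adjusted p of the named genes (SE; limma, adjusted p = 8.39e-07). The protein disulphide isomerase gene p4hb had 27.2, 24.5, 25.9, 15.8 and 16.2 FPKM at 1 µM, against 14.3, 14.8, 9.46, 14.3 and 11.6 FPKM at 10 nM. The groups did not overlap, but 1 µM replicates 4 and 5 lay close above the 10 nM libraries (0.70 ± 0.18, SE; limma, adjusted p = 0.0146). The glycosylation genes dpm2, for part of the enzyme that makes dolichol-phosphate mannose (0.68; limma, adjusted p = 0.0155), and rpn2, for a subunit of oligosaccharyltransferase (0.47; limma, adjusted p = 0.0276), overlapped between the doses. The call of dpm2 was lost with thinned reads (limma, adjusted p = 0.152). The call of rpn2 was lost in 9 of 25 alternatives, among them the omission of 1 µM replicate 1 or 3 or of 10 nM replicate 3 or 4, and p4hb was lost without 10 nM replicates 2 and 3 together (limma, adjusted p = 0.0520). The chaperone gene hyou1 was not called, at 0.32. The count of higher genes in this list was 5 with median-of-ratios scaling, quantile normalization and voom, 5 without 10 nM replicates 2 and 3, and 4 of 16 with reads thinned to the shallowest library. With each of the first 3 processings 1 gene was lower. Counts over all tested gene models under each processing were given with the scalings above.

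Outside that list, ctage5 and cpe were among the 15 largest named increases. The gene ctage5, for a protein that helps load large cargo at endoplasmic reticulum exit sites, had 5.31, 4.19, 5.31, 4.83 and 4.42 FPKM at 1 µM, against 2.38, 2.22, 2.12, 2.45 and 1.98 FPKM at 10 nM. These were well separated (0.84 ± 0.08, SE; limma, adjusted p = 2.9e-05). Of other named genes of membrane traffic outside the list, hook3-like was called higher (0.55; limma, adjusted p = 0.0426), as was fnbp1, described below. Not called were, for example, tram1 (0.29), trappc2l (0.36), trappc4 (0.31), yipf6 (0.08) and tm9sf3 (-0.10). All these examples were picked after their values were seen. The prohormone-processing gene cpe, for carboxypeptidase E, averaged 3.24 ± 0.77 FPKM at 1 µM and 1.54 ± 0.14 FPKM at 10 nM, also without overlap (0.72; limma, adjusted p = 0.00106).

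Cytoskeleton, adhesion and polarity genes were higher in 5 of 12 and lower in none, beside 17% higher and 7.43% lower of all tested gene models, with a list median of 0.19. The gene stard8-like had 8.23, 7.48, 8.75, 6.87 and 6.21 FPKM at 1 µM, against 2.97, 3.81, 2.43, 2.70 and 1.80 FPKM at 10 nM. The groups were far apart (1.20 ± 0.14, SE; limma, adjusted p = 9.87e-05). The atypical protein kinase C gene prkci, of the apical polarity complex, had 9.37, 8.78, 10.4, 11.7 and 11.6 FPKM at 1 µM, against 5.91, 4.93, 4.81, 5.31 and 6.58 FPKM at 10 nM. These did not overlap (0.80 ± 0.11, SE; limma, adjusted p = 0.000254). The moesin gene msn-like, whose product ties actin to the membrane, averaged 11.0 ± 0.84 FPKM at 1 µM and 5.82 ± 0.86 FPKM at 10 nM (0.82; limma, adjusted p = 0.000122). The F-BAR gene fnbp1, for a protein that bends membranes and recruits actin, was outside the list and averaged 6.27 ± 0.48 FPKM at 1 µM and 2.65 ± 0.47 FPKM at 10 nM (1.00; limma, adjusted p = 3.26e-05). Adhesion genes vcl and cdh15 were not called, at 0.06 and -0.14. The count of higher genes was 4 of 12 with median-of-ratios scaling, 4 with 1 lower after quantile normalization, and 3 of the 10 with recovered reads under voom. Over all tested gene models, 1677 of 13203, 1615 of 13203 and 1681 of 12793 were higher under these processings.

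**Figure D4:**
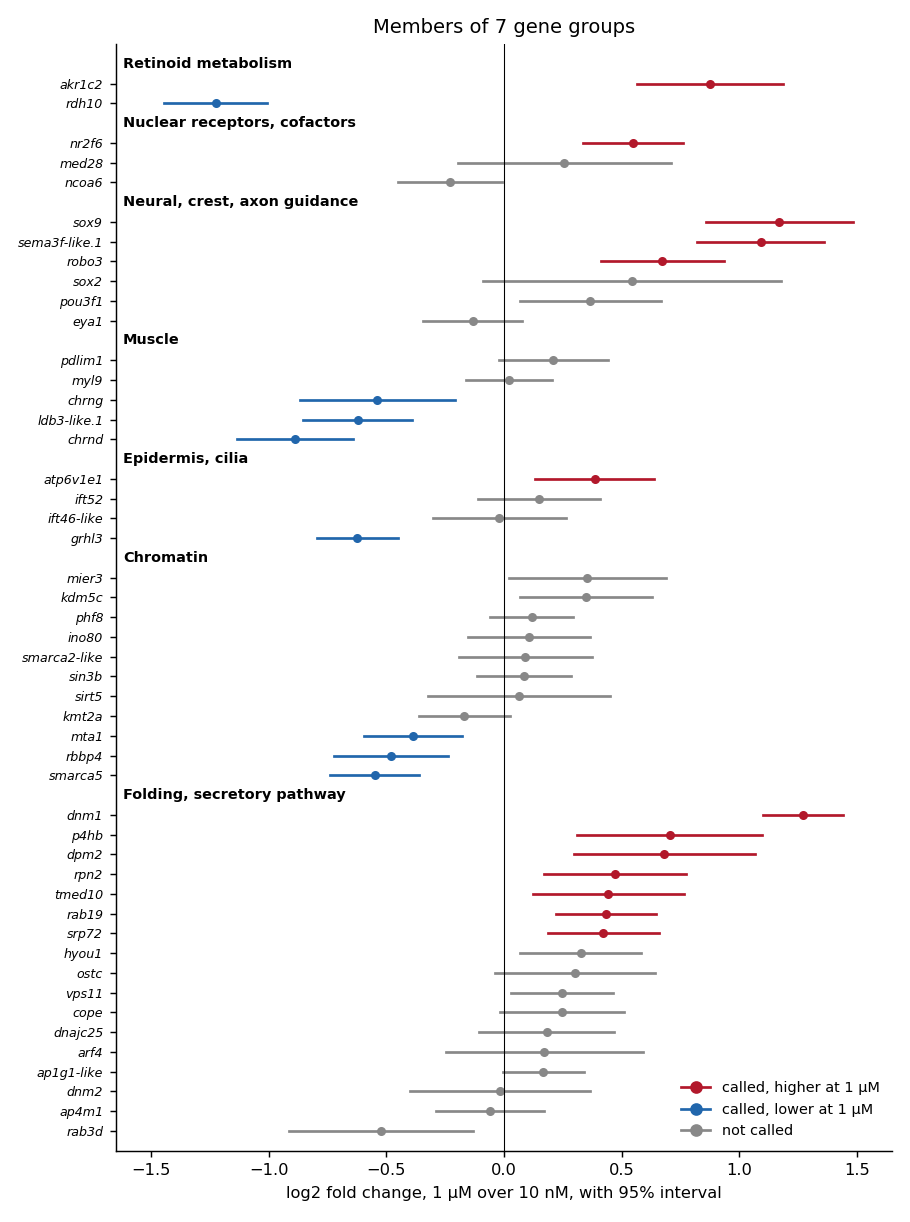
Points are log2 fold changes, 1 µM over 10 nM, of the tested members of 7 gene groups, with 95% intervals as lines. Red members were called higher, blue called lower and grey not called. In the muscle and chromatin groups every called member lies left of 0, and in the folding and secretory group every called member lies right of 0, on the deposited scale.

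In the mitochondrial list, 1 of 11 genes was higher and 1 was lower, beside 17% higher and 7.43% lower of all tested gene models. Among 11 mitochondrial genes ak3, for a matrix adenylate kinase, was higher at 2.71 ± 0.35 FPKM in 1 µM embryos against 1.04 ± 0.54 FPKM in 10 nM embryos, where it had 3 to 18 recovered reads per library (0.90; limma, adjusted p = 0.0025). The pyruvate dehydrogenase subunit gene dlat was lower (-0.33; limma, adjusted p = 0.0466), a call lost in 15 of 24 alternatives, among them the omission of any 1 µM library or of 10 nM replicate 1, 2, 4 or 5. Of 17 ubiquitin, SUMO and proteasome genes 2 were higher, the deubiquitinase gene usp20 (0.70; limma, adjusted p = 0.000135) and the conjugating enzyme gene ube2r2 (0.34; limma, adjusted p = 0.0213). Beside this, 17% of all tested gene models were higher, but the share depends on the membership of so small a list. It counts psmc3ip and nedd9, which are not mainly genes of this pathway. It leaves out the ubiquitin ligase gene mgrn1, called higher (0.43; limma, adjusted p = 0.0282), and the COP9 gene gps1, not called (0.44). The gene ube2r2 lost its call with the 4 other scalings, voom and the replicate block, and without replicate 5 of either dose. The lipid kinase gene cerk, for ceramide kinase, averaged 5.65 ± 0.61 FPKM at 1 µM and 2.85 ± 0.25 FPKM at 10 nM (0.79; limma, adjusted p = 5.82e-05). The lipid phosphatase gene ppap2c averaged 2.63 ± 0.26 FPKM at 1 µM and 3.76 ± 0.38 FPKM at 10 nM (-0.39; limma, adjusted p = 0.00591). The nuclear import gene ipo11 was lower by a smaller amount, without overlap (-0.33; limma, adjusted p = 0.011), a call lost without 10 nM replicates 2 and 3 (limma, adjusted p = 0.0621). Other calls taken by the same rule were fam129b (0.87), sptan1 for a spectrin (0.44) and bgn for the matrix proteoglycan biglycan (0.61, lost without 1 µM replicate 3).

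The largest changes belonged to gene models without a symbol. Xelaev18035730m.g had 41.0, 39.0, 50.6, 42.1 and 44.2 FPKM at 1 µM, against 3.82, 2.23, 2.77, 4.13 and 2.78 FPKM at 10 nM, a difference of 3.44 ± 0.13 (SE; limma, adjusted p = 6.12e-08). Xelaev18019361m.g differed by 3.62 ± 0.36 (SE), with 70 to 393 recovered reads per library at 1 µM but only 3 to 4 at 10 nM. Among decreases, Xelaev18045886m.g had 2.10, 2.17, 1.05, 1.29 and 2.27 FPKM at 1 µM, against 31.3, 31.2, 27.6, 27.7 and 19.0 FPKM at 10 nM (-3.36 ± 0.17, SE; limma, adjusted p = 2.45e-07). Xelaev18034731m.g fell to 1.67 ± 0.30 FPKM at 1 µM, against 14.2 ± 2.0 FPKM at 10 nM (-2.50 ± 0.11, SE; limma, adjusted p = 1.58e-07). Over all 45099, 112 gene models had a value above 0 in all 1 µM libraries and 0 in all 10 nM libraries, and 6 the reverse. Only 3 of the 112 passed the level filter. The median of all 112 at 1 µM was 0.194 FPKM, and the depth of the doses differed as given above.

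Set beside the vehicle libraries, which did not enter the test, the named genes showed several orders of level over the doses. The vehicle libraries had a relative depth of 0.312 to 0.833, and the most abundant gene model held 23.59 to 45.55% of their FPKM. Vehicle values were not rescaled for this, so the levels are on the deposited scale only. For rdh10 the mean was 22.9 ± 3.5 FPKM with vehicle, 14.0 ± 2.1 FPKM at 10 nM and 5.36 ± 0.34 FPKM at 1 µM, with no overlap between neighbouring groups. For mycl it was 9.90 ± 1.1, 5.27 ± 0.72 and 2.62 ± 0.77 FPKM in the same order. For zfp36l1 it was 11.4 ± 1.1, 7.62 ± 1.0 and 4.35 ± 0.71 FPKM, again a stepwise decrease without overlap. In dnm1 the order ran upward, at 0.695 ± 0.20 FPKM with vehicle, 1.16 ± 0.15 FPKM at 10 nM and 4.22 ± 0.29 FPKM at 1 µM. Its highest vehicle library, at 1.02 FPKM, lay just below its lowest 10 nM library, at 1.04 FPKM. For cpe the means were 0.752 ± 0.26, 1.54 ± 0.14 and 3.24 ± 0.77 FPKM.

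Other genes stood apart at the higher dose, while the vehicle and 10 nM libraries overlapped. The values for smarca5 were 17.4 ± 1.5 FPKM with vehicle, 17.1 ± 0.93 FPKM at 10 nM and 11.4 ± 1.2 FPKM at 1 µM. For kcnj2 they were 1.77 ± 0.33, 1.70 ± 0.34 and 0.596 ± 0.059 FPKM. For fnbp1 they were 2.91 ± 0.68, 2.65 ± 0.47 and 6.27 ± 0.48 FPKM, and for nr2f6 2.45 ± 0.58, 2.54 ± 0.46 and 4.14 ± 0.30 FPKM. In a few genes the 10 nM level lay outside both others. The polarity gene prkci had 9.13 ± 1.4 FPKM with vehicle, 5.51 ± 0.74 FPKM at 10 nM and 10.4 ± 1.3 FPKM at 1 µM, and grhl3 had 18.9 ± 1.3, 23.7 ± 0.96 and 15.1 ± 1.1 FPKM. For sox9 the vehicle mean of 2.70 ± 0.40 FPKM was near the 10 nM mean of 2.09 ± 0.63 FPKM, below 5.86 ± 0.75 FPKM at 1 µM. These orders are given as levels only, since the 10 nM libraries take part in both steps and a chance deviation there would appear in each.

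**Figure D5:**
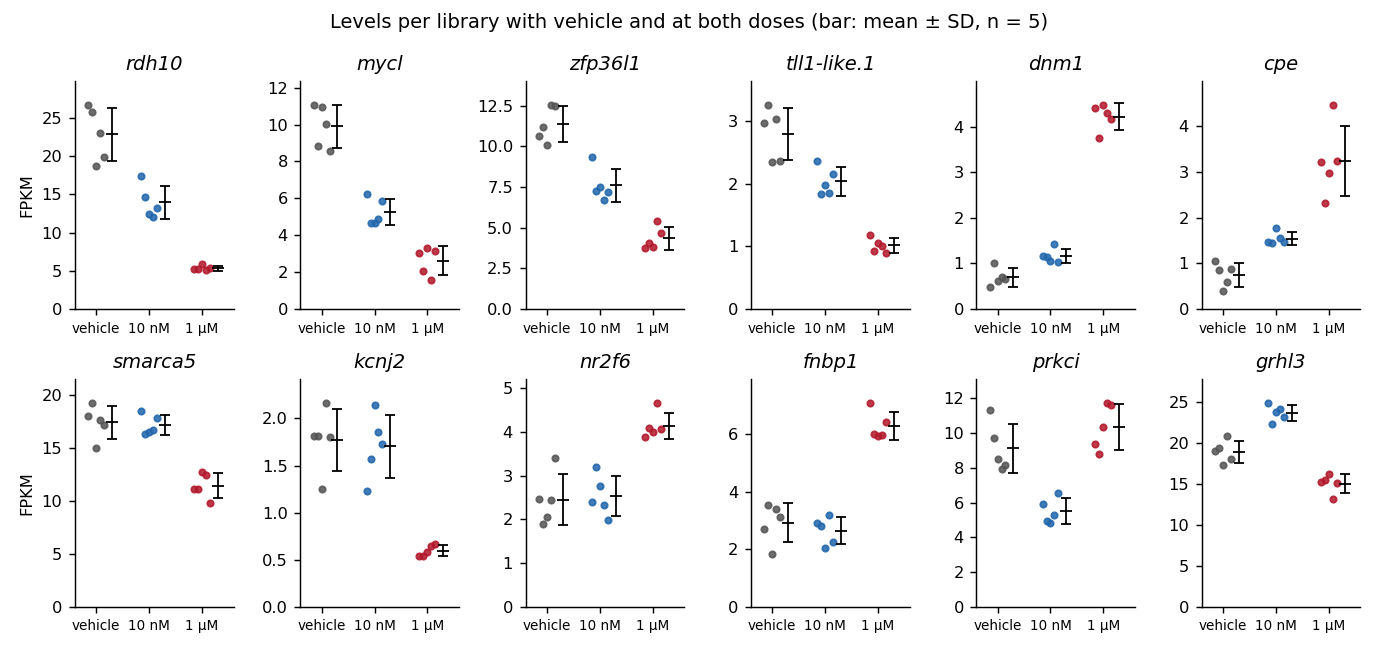
FPKM of 12 named genes in each library with vehicle (grey), 10 nM (blue) and 1 µM (red) NRX204647, with the mean ± SD of 5 libraries beside the points and each axis from 0. The first panels step down or up at both doses (rdh10, mycl, zfp36l1, dnm1), smarca5, kcnj2, nr2f6 and fnbp1 differ mainly at 1 µM, and prkci and grhl3 have a 10 nM level outside the other 2.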

How the data were processed

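The authors deposited FPKM per gene model for 15 libraries, made from single 50 nt reads without strand information on an ABI SOLiD instrument from amplified cDNA (100 ng of total RNA), per the labels' protocols. The tools were TopHat, Bowtie and Cufflinks, per the submitters' processing notes, with versions not given in the sources used here, nor the build or annotation.

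The 10 libraries of the doses were fitted alone with limma 3.58.1 (R 4.3.3; trend, no covariates) on log2(FPKM + 1), for gene models averaging 1 FPKM or more, two-sided, with Benjamini-Hochberg adjusted p under 0.05. Tables and figures used Python 3.11.15, pandas 2.3.3 and matplotlib 3.10.9. Named genes were the 15 largest increases and the 15 largest decreases (13 existed) among named calls without overlap, up to 4 calls per list of 28 gene lists, all retinoid and nuclear receptor genes, and 2 gene models without a symbol per direction. Of the lists, 24 had a tested member, and 4 (endoderm, blood and heart, Notch and Hedgehog, glycolysis and lipids) had none. The members and lists were chosen with earlier results of these data known. None of the identifiers matched the RefSeq table used (0), so names came from the deposited table.

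Whole reads were recovered from the FPKM steps for 98.6% of 34147 gene models (within 0.03 reads) and 96.9% of those tested. For some, among them mycbp and Xelaev18035730m.g, nearly all values share a factor, so 1 step may be less than a whole read. The lowest and highest reads of each group share a factor in insr and huwe1 too. How many gene models this affects was not counted, and the read totals, voom and thinned reads rest on these recovered reads. No pair of replicates held identical values (0 of 20; chi-square per degree of freedom 5.38 to 17.1). In simulated data for 12494 gene models, 98 were changed by 0.5 and 99 by 1 on the log2 scale. The fit recovered 13.3% and 45.5% of these, and 6.5% of its 62 calls were unchanged genes. The adjusted p depends on the share of changed genes, which was far smaller there than the 24.4% called between the doses. These rates therefore do not carry over to the calls above. Alternatives were pseudocounts of 0.1 and 5, other filters, 4 scalings, voom, thinned reads, library weights, a robust prior, the replicate block, all 15 libraries, stricter thresholds and leaving out libraries.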

Additional observations from a re-analysis of the deposited data

Results flagged for a closer look

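Single libraries stood far from the other 4 of their group in 3 of 106 groups of named genes examined, where chance gives about 1 in 20. For slc27a4, 1 µM replicate 2 had 2.14 FPKM, against 2.91 to 3.10 FPKM in the other 1 µM libraries. For nr2f6, 1 µM replicate 4 had 4.66 FPKM, against 3.88 to 4.10 FPKM. For azin2, 10 nM replicate 3 had 37.4 FPKM, against 19.4 to 24.5 FPKM in the other 10 nM libraries. These calls kept their direction without the library concerned.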

How the results depend on the processing

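Of the 51 called genes named by the rule, 35 kept their call under every alternative in which they were fitted, stricter thresholds not counted. The other 16 lost it under at least 1, and none changed sign. The gene mta1, for example, is among the 35, but its adjusted p of 0.0121 (limma) is above 0.01. The gene sptan1 has no recovered reads, so it was not fitted with the length correction, voom or thinned reads. The total of 3224 calls was 1146 at a mean of at least 5 FPKM (759 higher at 1 µM, 387 lower), 473 when tested against a log2 fold change of 0.5 (360 and 113) and 1816 at an adjusted p under 0.01 (1306 and 510). Leaving out each library gave 2559 to 3239 calls (1755 to 2374 higher, 795 to 925 lower). The 981 lower calls became 1542 (median of ratios), 1713 (quantile), 1498 (length correction) and 1607 (voom). The 479 calls of 2-fold or more became 907 with a pseudocount of 0.1, 95 with a pseudocount of 5, 182 at a mean of at least 5 FPKM and 907 with voom. The cause of these shifts was not tested, except that the FPKM filter leaves 4087 gene models. The replicate block gave 2868 calls (2026 and 842). Same-numbered libraries of the doses deviated together at r from -0.026 to 0.067. The closest 10 nM library had the same number for 1 µM replicates 4 and 5, and another number for replicates 1, 2 and 3. Such correlations cannot show whether same-numbered libraries were handled together, so pairing was not settled. Calls lost when 10 nM replicates 2 and 3 were left out numbered 9 of 51, p4hb, chrng and ipo11 among them; hells and dpm2 were lost with thinned reads and bgn without 1 µM replicate 3. At 10 nM 157 to 321 tested gene models were at 0 per library, against 81 to 151 at 1 µM. Depth and dose differed together, so their parts in these zeros cannot be told apart.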

Other observations

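Among 400 blocks of 100 identifiers with at least 20 tested gene models, the share called higher at 1 µM had a median of 16.7%. In the block numbered from 2800, chosen after its values were seen because it holds dnm1, stard8-like, sema3f-like.1, cerk, fam129b and slc27a4, 16 of 36 tested gene models were higher and none was lower. With median-of-ratios scaling, 11 of them were higher. Whether identifier order follows position in the genome was not tested. Of 20 named genes in the block, 15 had an entry in the RefSeq table when matched by symbol. A symbol could have copies on 2 chromosomes, and 12 of the 15 had a copy on the chromosome most common among them. Of the genes for which the block was chosen, stard8-like and slc27a4 did. The genes sema3f-like.1 and cerk had no copy there, and dnm1 and fam129b had no entry.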
